A study of Mus musculus with 116 samples.

Results

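The genes described here are those of the proteasome in a mouse myeloid progenitor line. They were taken as every array probe whose gene symbol begins with Psma, Psmb, Psmc, Psmd, Psme or Psmg followed by a digit, and probes of 1 symbol were averaged. The rule found 49 symbols on 50 probes, out of 15097 symbols tested. Of the 49, 47 encode proteasome subunits, activators or assembly chaperones, and Psmc3ip and Psme3ip1 were matched by name and are none of these. Symbols beginning with Psma and Psmb encode the alpha and beta rings of the core particle, a barrel that cuts proteins into peptides inside its chamber. Psmc genes encode the ATPases, and most Psmd genes the other parts, of the regulatory cap that binds ubiquitin-tagged proteins, unfolds them and feeds them into the barrel. Psmg genes and Psmd5, Psmd9 and Psmd10 encode chaperones that help to assemble these particles, and Psme genes encode activators that open the barrel without the cap. In blood cells, as in others, the beta subunits Psmb8, Psmb9 and Psmb10 can replace the standard catalytic subunits to form the immunoproteasome, which is known for making peptides for MHC class I molecules.

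FDB1 cells, which need a growth factor, were kept in medium with 500 U/mL mouse IL-3, a cytokine on which they proliferate, and with fetal calf serum at 10%. V449E cells and FI-Delta cells are FDB1 cells that express 1 of 2 mutants of the GM-CSF receptor. At 0 hours cells of both mutant lines were washed free of IL-3 and then kept without added factor for 6, 12, 24, 48 or 72 hours. Parental FDB1 cells were washed in the same way and moved to 500 U/mL mouse GM-CSF, a cytokine under which they differentiate into granulocytes and macrophages, for the same times, and the parental cells at 0 hours were their baseline. Every group thus shares the IL-3 culture before 0 hours. The labels do not give the promoter that drives a mutant receptor or whether a line is 1 clone. Each of the 18 conditions had 2 replicate RNAs, and total RNA was compared in pairs on spotted 2-colour arrays, in 58 dye-swap pairs of arrays over 28 comparisons. The design text asks how each course differs from 0 hours and how lines differ at the same time.

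The members serve 1 complex and 29 of them were lower together in FI-Delta cells, so the bases just before the start are shown for the 3 members that lead the FI-Delta course below, for Psmb8, which fell most in it, and for Psmb5, which holds letters of the antioxidant response element. RefSeq promoters on GRCm38.p6 matched 41 of the 49 members in 44 windows of 250 bases before the start. Capitals mark TGACNNNGC (core of the antioxidant response element, which NRF1 and NRF2 bind), CCAAT (NF-Y) or CCGGAAG (ETS factors) on either strand. These 3 sets of letters do not overlap in the windows printed.
Psmd14 (chr2:61711444-61711693, plus strand): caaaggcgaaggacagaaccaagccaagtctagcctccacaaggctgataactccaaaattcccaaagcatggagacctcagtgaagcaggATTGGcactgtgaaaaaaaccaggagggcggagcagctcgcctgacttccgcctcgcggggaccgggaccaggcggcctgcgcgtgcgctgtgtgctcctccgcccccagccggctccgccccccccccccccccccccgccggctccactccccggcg
Psmc1 (chr12:100109952-100110201, plus strand): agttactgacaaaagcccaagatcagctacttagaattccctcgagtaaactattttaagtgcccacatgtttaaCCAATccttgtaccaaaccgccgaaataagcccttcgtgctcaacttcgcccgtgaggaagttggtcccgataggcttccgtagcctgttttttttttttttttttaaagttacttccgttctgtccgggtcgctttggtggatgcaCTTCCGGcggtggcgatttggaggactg
Psma5 (chr3:108256676-108256925, plus strand): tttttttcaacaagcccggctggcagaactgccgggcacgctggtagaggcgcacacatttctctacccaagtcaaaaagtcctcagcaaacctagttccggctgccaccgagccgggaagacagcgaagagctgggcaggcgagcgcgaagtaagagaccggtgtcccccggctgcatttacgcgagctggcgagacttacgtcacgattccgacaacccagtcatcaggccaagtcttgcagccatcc
Psmb8 (chr17:34197945-34198194, plus strand): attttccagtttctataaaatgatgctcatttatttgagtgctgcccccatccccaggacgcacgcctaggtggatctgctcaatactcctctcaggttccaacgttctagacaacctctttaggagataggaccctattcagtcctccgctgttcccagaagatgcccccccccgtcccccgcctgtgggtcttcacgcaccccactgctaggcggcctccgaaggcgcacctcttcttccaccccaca
Psmb5 (chr14:54617996-54618245, minus strand): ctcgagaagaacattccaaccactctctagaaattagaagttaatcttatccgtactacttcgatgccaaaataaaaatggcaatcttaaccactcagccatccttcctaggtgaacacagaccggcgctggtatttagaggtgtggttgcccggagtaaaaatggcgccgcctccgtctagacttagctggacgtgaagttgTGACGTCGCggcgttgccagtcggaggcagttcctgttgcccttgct
Psmc1 holds CCAAT and, on the other strand, CCGGAAG. Psmd14 holds CCAAT read from the other strand, Psmb5 holds TGACGTCGC, and the windows of Psma5 and Psmb8 hold none of the 3. CCGGAAG stood in 31.8% of the members' windows, against 6.91% of all 32851 windows of the same length. The members' windows with these letters include both of Psmc2 and that of Psmc3ip, which is a name match only. The comparison is with all windows and not with a set of genes like the members, so it does not show a trait particular to them. TGACNNNGC stood in 11.4% against 10.2%, and CCAAT in 36.4% against 33.8%. Other letters searched on both strands were TTCNNNGAA (STAT), in 4.55% against 7.02%, CACGTG (E box), in 11.4% against 6.02%, and 2 copies of GAAA with 2 bases between them (interferon response), in 6.82% against 2.98%. The 22 members with a window that fell in FI-Delta cells at 72 hours held CCGGAAG in 5 cases, and the 19 others with a window in 8. The interferon response letters stood in 3 of the 22 and 0 of the 19. In the same order the counts were 3 and 2 for TGACNNNGC and 9 and 7 for CCAAT. They were 2 and 0 for TTCNNNGAA and 4 and 1 for CACGTG. A match of letters is a description of these windows and not a binding site.

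A value per RNA is a fitted level on the log2 scale, relative to the mean of the 18 RNAs of the same replicate, and values of replicate 1 and replicate 2 are given in that order. The direction of the deposited ratios is not stated and Cy5 over Cy3 was assumed: the labels give Cy5 as channel 1 and limma, named in the processing notes, writes that ratio, so this direction is likely but not settled. Read this way, the myeloid genes Itgam, Ctss, Mpeg1, Mmp8 and Lcn2 were higher after 72 hours of GM-CSF by 1.14 to 2.20 on the log2 scale, and the mast cell and progenitor genes Gata2 and Cpa3 changed by -1.23 and -1.70. Kit, also listed as a gene that should be lower, gave -0.0017 (adjusted p = 0.998). Ratios give no level, so the presence or absence of any cell type's markers could not be read from them. Array medians ran from -0.016 to 0.011 and the arrays' median absolute deviations from 0.0865 to 0.198. The correlation over probes within a dye-swap pair, where the ratios should have opposite signs, ran from -0.653 to only -0.0327. Between replicates, differences over all symbols correlated at 0.83 for FI-Delta cells at 72 against 0 hours. The correlation was 0.21 for V449E cells at these times and 0.066 for FI-Delta against parental cells at 0 hours. Of the arrays, 90 were of print run 1 and 26 of print run 2. Run 2 held every replicate 2 array of the GM-CSF course and of FI-Delta against GM-CSF. Fits from print run 1 alone thus kept only replicate 1 of each GM-CSF condition, and do not separate print run from the loss of a replicate.

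Proteasome genes were lower together in FI-Delta cells at 72 hours. At that time 29 of the 49 members fell and 1 rose against FI-Delta cells at 0 hours, and the median member had a log2 difference of -0.29, or 0.815-fold. Over all symbols 18.5% were called in this comparison, 10.7% as lower, with a median of -0.0032. The medians within the replicates were -0.26 and -0.29, and 41 members were lower in both replicates, as were 38.7% of all symbols. Both FI-Delta RNAs at 72 hours had the lowest median level of their replicate, -0.23 and -0.19, while the medians of FI-Delta cells at 0 hours were 0.043 and 0.098. For 29 members the mean level was the lowest of all 18 conditions in FI-Delta cells at 72 hours, which held for 15.2% of all symbols. The changes were small: the member that changed most, Psmb8, stood at 0.675-fold. In bulk RNA of this kind, fewer cells of a type and less RNA per cell cannot be told apart. The count used limma's moderated test with Benjamini-Hochberg adjustment over all 15097 symbols at 0.05. It was 12 without replicate 1 and 9 without replicate 2 of FI-Delta cells at 0 hours, 10 without replicate 1 at 72 hours, and 15, all lower, after each array was scaled to the same spread.

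**Figure D1:**
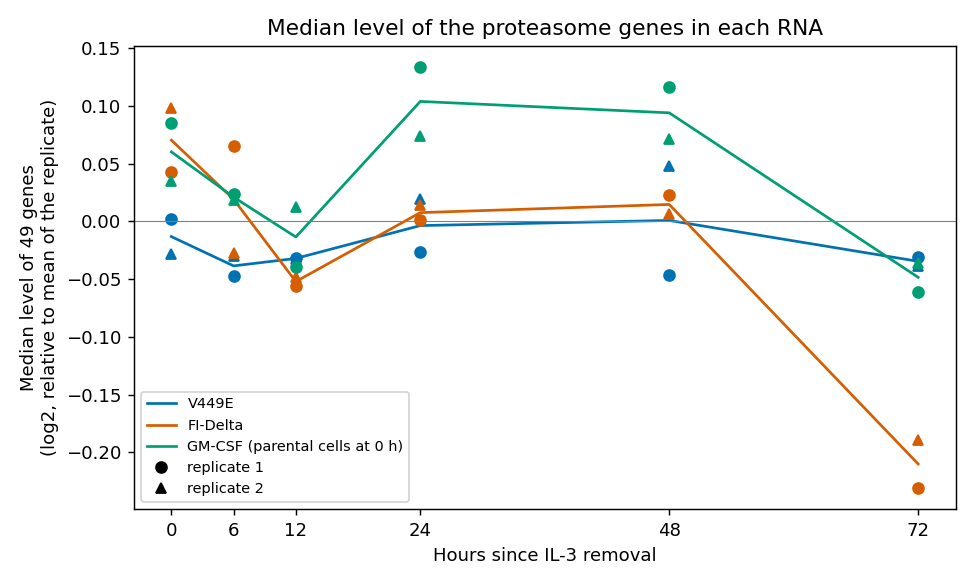
Median level of the 49 proteasome genes (log2, relative to the mean of the replicate's 18 RNAs) against hours since IL-3 removal, for V449E, FI-Delta and GM-CSF cells, with parental cells as the 0 hour point of the GM-CSF line. Circles are replicate 1, triangles replicate 2 and lines their mean; the FI-Delta points at 72 hours, -0.23 and -0.19, lie below all others.

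Every functional class of these genes held members that fell in FI-Delta cells at 72 hours. In the alpha ring of the core, 6 of 8 fell, with a median log2 difference of -0.33, led by Psma1 (-0.49) and Psma5 (-0.47). Psma6 gave -0.18 (adjusted p = 0.17), and Psma8, the form known from testis, 0.098 (adjusted p = 0.332). Of the structural beta subunits, Psmb1, Psmb2 and Psmb3 fell, the last with an adjusted p of up to 0.655 without 1 RNA, and Psmb4 gave -0.17 (adjusted p = 0.0948). Of the standard catalytic subunits, Psmb5, which carries the chymotrypsin-like activity, fell by 0.32 on the log2 scale and Psmb7, which carries the trypsin-like activity, fell by 0.26. Psmb6, the caspase-like subunit, gave -0.18 (adjusted p = 0.105). Of the cap's 6 ATPases, Psmc1, Psmc3, Psmc5 and Psmc6 fell, between -0.34 and -0.29. Psmc2 gave -0.20 (adjusted p = 0.055) and Psmc4 -0.17 (adjusted p = 0.259).

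In the rest of the cap, 2 of 3 base subunits and 3 of 8 lid subunits fell. Psmd1, a scaffold of the base, gave -0.44 (SE 0.099, adjusted p = 0.00298) and Psmd4, a ubiquitin receptor, -0.33 (SE 0.073, adjusted p = 0.00237), whereas Psmd2, the other large scaffold, gave 0.075 (adjusted p = 0.648). The lid members that fell were Psmd3, Psmd7 and Psmd14, at -0.41 to -0.39. The 5 other lid members lay between -0.23 (Psmd12) and 0.053 (Psmd11), and none passed. Among assembly chaperones 5 of 7 fell. Psmg1 and Psmg2, which pair to build the alpha ring, gave -0.37 and -0.54, and Psmg3 gave -0.40. The Psmg1 call was lost in 3 of 4 fits without 1 RNA (adjusted p up to 0.242). Psmd5 and Psmd9, which bind ATPases of the base during assembly, gave -0.32 and -0.25. Psmg4 did not pass, at -0.18 (adjusted p = 0.121), nor did Psmd10, at -0.0073 (adjusted p = 0.962). The name matches Psmc3ip and Psme3ip1 gave -0.055 and 0.0097, and neither passed.

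**Figure D2:**
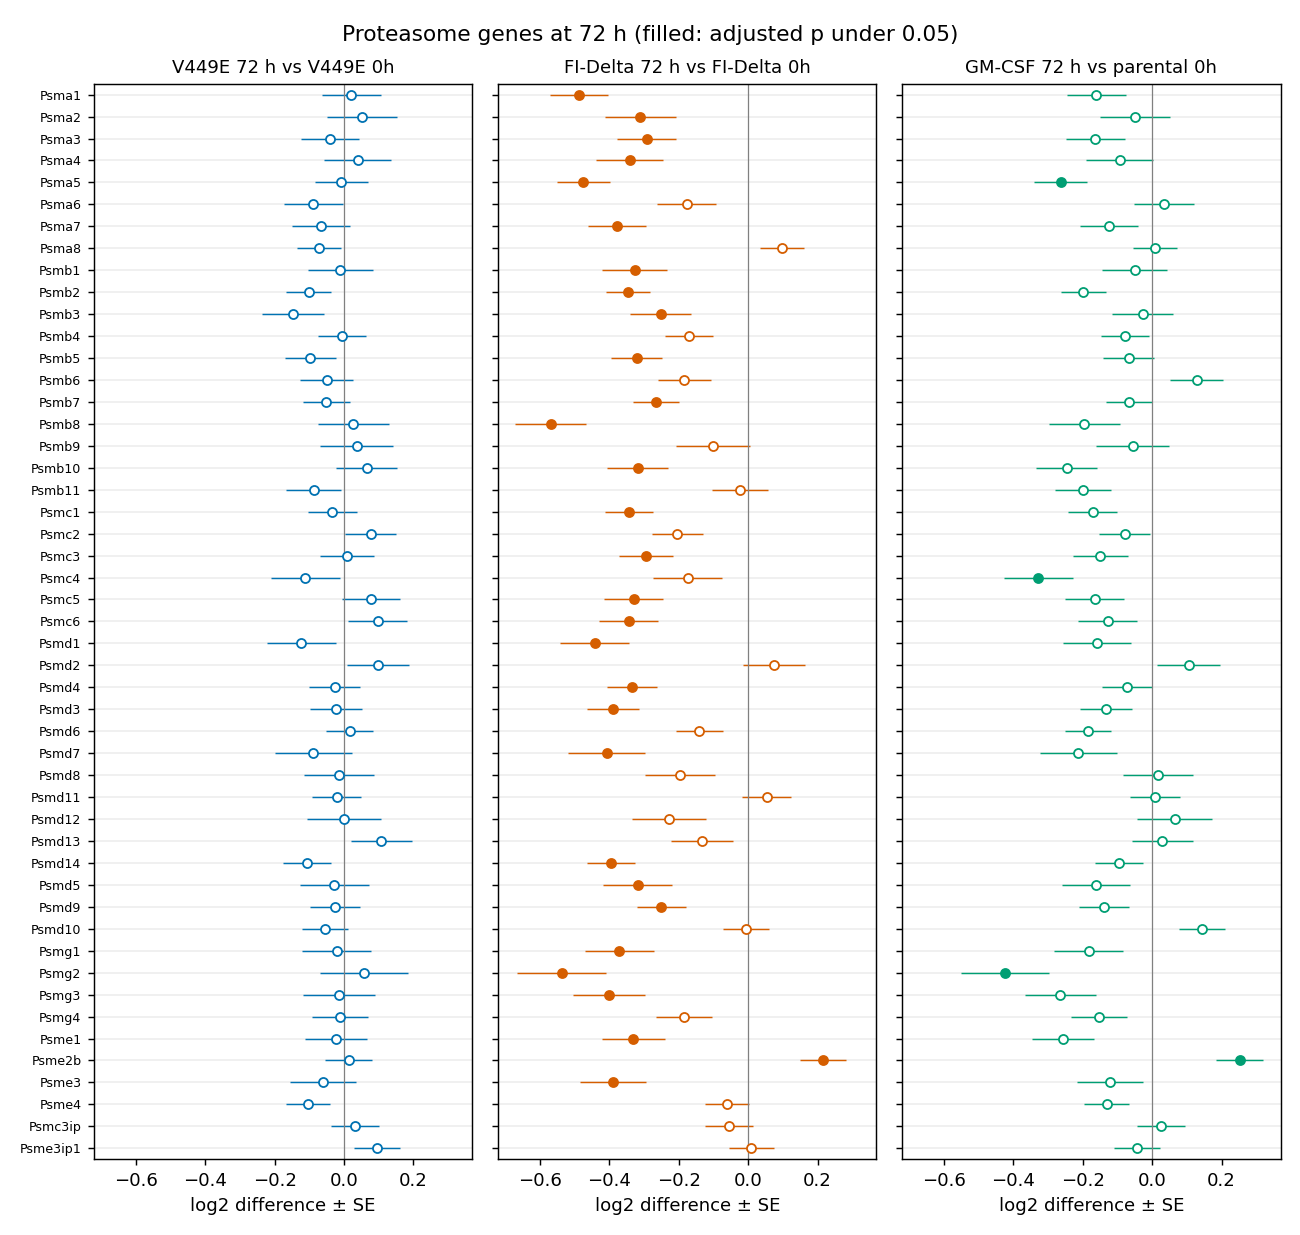
Log2 difference between 72 and 0 hours for each of the 49 genes (rows, grouped by role) in V449E, FI-Delta and GM-CSF cells, with the standard error of the fit as a bar and filled points at an adjusted p under 0.05. In the FI-Delta panel 29 filled points lie left of 0 and 1 right of it; the GM-CSF panel has 4 filled points and the V449E panel 0.

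Over the whole FI-Delta course 22 of 49 members changed (moderated F test over 5 times against 0 hours), beside 15.7% of all symbols. Psmd14, the lid enzyme that removes ubiquitin chains from proteins before they enter the barrel, had the smallest p. In FI-Delta cells its levels were 0.036 and 0.10 at 0, 0.14 and 0.12 at 6, -0.16 and -0.017 at 12, -0.021 and -0.045 at 24, 0.023 and -0.024 at 48 and -0.27 and -0.38 at 72 hours. Both levels at 72 hours lay below all 10 others, and the difference between 72 and 0 hours was -0.40 (SE 0.069, adjusted p = 0.000339). Psmc1, an ATPase of the cap, stood at 0.077 and 0.13 at 0, 0.23 and 0.13 at 6, -0.079 and -0.045 at 12, 0.0064 and -0.0049 at 24, 0.12 and 0.053 at 48 and -0.26 and -0.22 at 72 hours. Its levels at 72 hours again lay below all 10 others, with a difference of -0.34 (SE 0.070, adjusted p = 0.00134). For Psma5, of the alpha ring, the levels were 0.10 and 0.17 at 0, 0.21 and -0.10 at 6, 0.00071 and -0.062 at 12, 0.033 and -0.029 at 24, -0.075 and -0.042 at 48 and -0.37 and -0.31 at 72 hours. The replicates at 6 hours lay apart, those at 72 hours were the lowest, and the difference at 72 hours was -0.47 (SE 0.077, adjusted p = 0.000175). Psmd14, Psma5 and Psmb8 passed at 72 hours without any 1 of the 4 RNAs compared, and Psmc1 missed the threshold in 1 of these 4 fits (adjusted p = 0.0509, without replicate 2 of FI-Delta cells at 0 hours). The count over the course was 10 without replicate 1 at 0 hours, 10 without replicate 1 at 72 hours, 14 without replicate 2 at 0 hours, 13 from print run 1 alone and 9 after scaling of the arrays.

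Before 72 hours fewer members were called in FI-Delta cells. At 12 hours 5 members fell and 1 rose, beside 6.79% of all symbols called, with a median of -0.14. Those lower were Psmb8 (-0.39), Psme3 (-0.36), Psmd1 (-0.36), Psmd12 (-0.35) and Psmc2 (-0.25), and Psmd10, an assembly chaperone also known as the oncoprotein gankyrin, was higher (0.22). Without an RNA at 0 or 12 hours the count at 12 hours was 0 to 3: it was 1 without replicate 1 and 0 without replicate 2 at 0 hours, and 3 and 0 without those at 12 hours. It was also 0 after scaling of the arrays. At 6, 24 and 48 hours limma called 0 members, although 9, 5 and 4 had an unadjusted p under 0.05. All symbols were called at 1.22%, 2.01% and 5.35% at these times, and the members' medians were -0.034, -0.065 and -0.062. Between 48 and 72 hours the median level of the members dropped in both replicates, to -0.23 and -0.19 at 72 hours against 0.023 and 0.0061 at 48 hours.

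**Figure D3:**
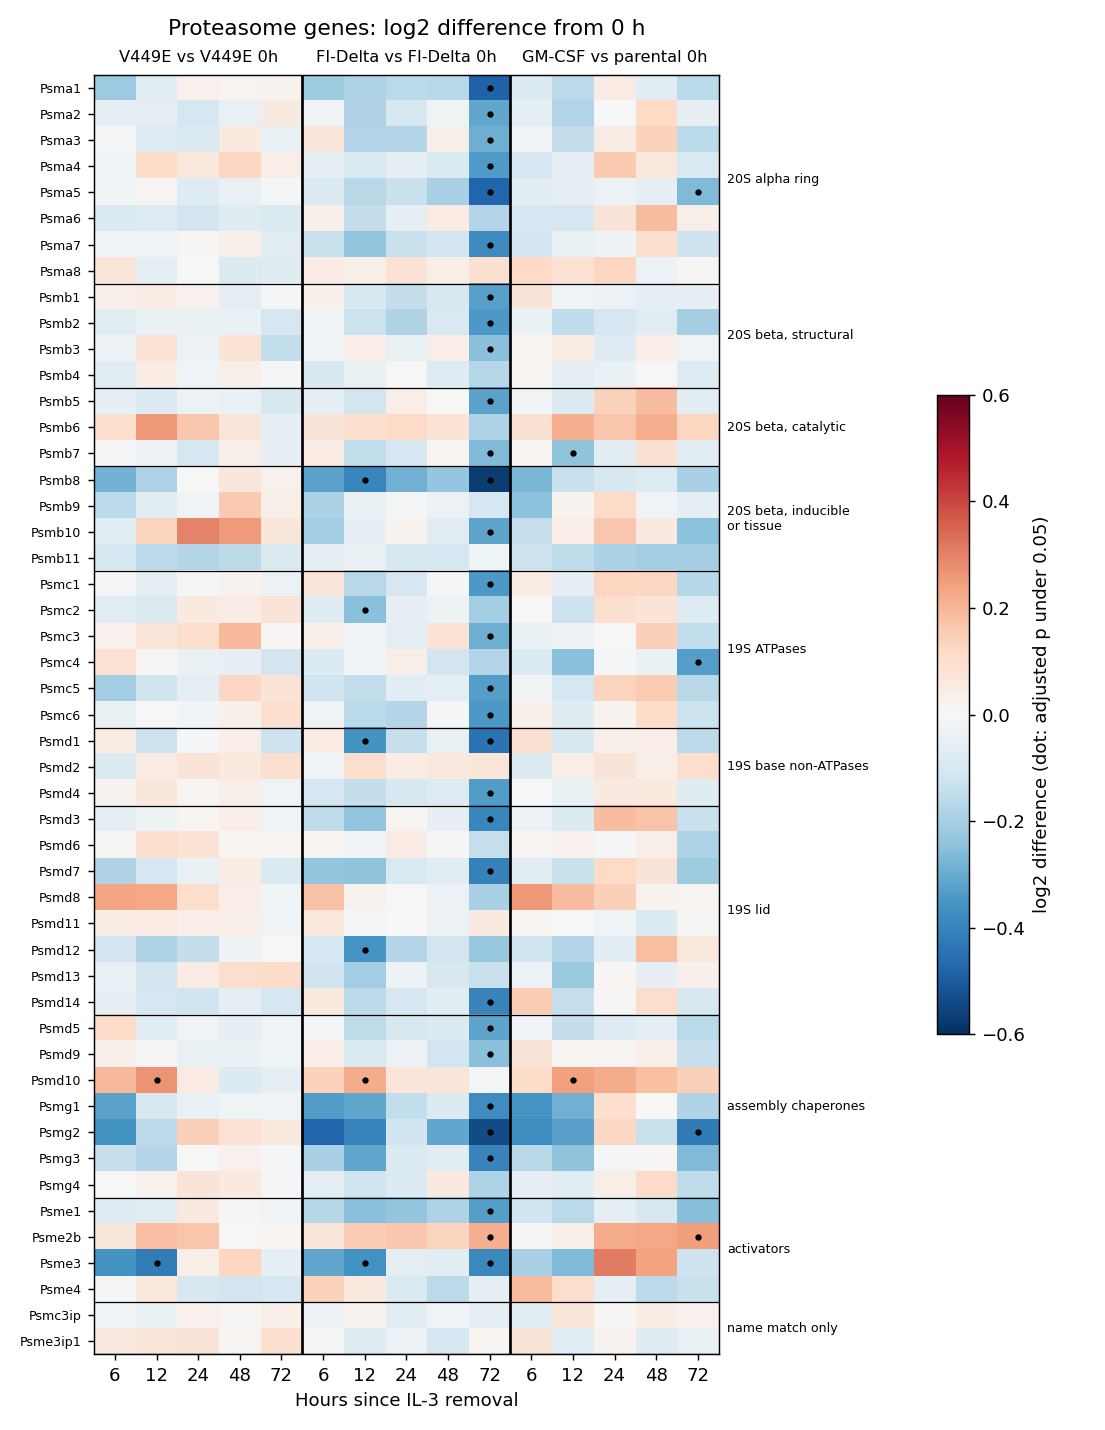
Log2 difference from 0 hours for the 49 genes (rows, by role) at 6 to 72 hours in V449E, FI-Delta and GM-CSF cells (columns). Blue is lower and red higher than at 0 hours, and a dot marks an adjusted p under 0.05; 30 dots stand in the FI-Delta column at 72 hours and 6 in that at 12 hours.

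In GM-CSF few members were called at 72 hours. Of 49, 3 fell and 1 rose against parental cells at 0 hours, beside 7.23% of all symbols called and 3.41% called as lower, and the median member differed by -0.13. Psma5 had levels of -0.24 and -0.054 at 72 hours and 0.12 and 0.12 in parental cells, a difference of -0.26 (SE 0.077, adjusted p = 0.0376). Psmc4 differed by -0.33 (SE 0.099, adjusted p = 0.0456). The lowest member, Psmg2, stood at -0.32 and 0.095 in GM-CSF at 72 hours and 0.24 and 0.38 in parental cells, a difference of -0.42 (SE 0.13, adjusted p = 0.0447). Its replicates at 72 hours lay far apart. Psme2b was the member that rose, as described with the activators. Without either parental RNA 0 of the 4 calls were made, and after scaling of the arrays the only call was higher (1 higher, 0 lower). The median from arrays of print run 1, which held replicate 1, was -0.077, and from those of run 2, which held replicate 2, -0.13.

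Over the GM-CSF course as a whole 12 members changed, beside 17.4% of all symbols. Psme3, subunit of the nuclear activator also called REG-gamma, led them with levels of 0.037 and 0.12 at 0, -0.038 and -0.20 at 6, -0.16 and -0.22 at 12, 0.37 and 0.41 at 24, 0.31 and 0.32 at 48 and -0.11 and 0.015 at 72 hours. It was highest at 24 and 48 hours, when both replicates lay above those of every other time, and the F test gave an adjusted p of 0.000558. Psme4, which encodes a large single-chain activator, had levels of -0.022 and -0.0019 at 0, 0.18 and 0.18 at 6, 0.17 and 0.017 at 12, -0.087 and -0.050 at 24, -0.16 and -0.18 at 48 and -0.13 and -0.16 at 72 hours. These were highest at 6 hours and lowest at 48 and 72 hours (adjusted p = 0.00249 by the F test). Psmg1 stood at 0.17 and 0.19 at 0, -0.076 and -0.28 at 6, -0.24 and 0.012 at 12, 0.33 and 0.23 at 24, 0.12 and 0.24 at 48 and -0.087 and 0.076 at 72 hours, with the lowest mean at 6 hours and the highest at 24 hours (adjusted p = 0.00815). The count over the course was 6 without replicate 2 of the parental cells at 0 hours and 4 from print run 1 alone.

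Single times of the GM-CSF course held few calls. At 12 hours Psmd10 rose, by 0.25 (adjusted p = 0.0404), and Psmb7 fell, at -0.24 (adjusted p = 0.0421), beside 3.85% of all symbols. At 6, 24 and 48 hours 0 members passed in limma, with 7, 6 and 9 at an unadjusted p under 0.05, and 0.59%, 1.46% and 1.58% of all symbols were called. The members' medians were -0.036 at 6, -0.072 at 12, 0.019 at 24 and 0.040 at 48 hours.

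In V449E cells no member was called at the end of the course. At 72 hours 0 of 49 members passed against V449E cells at 0 hours, 0 had an unadjusted p under 0.05, and 0% of all symbols were called by limma. The members ranged from -0.15 (Psmb3) to 0.11 (Psmd13), with a median of -0.021. Psmb3 stood at -0.19 and -0.13 at 72 hours and -0.031 and -0.0019 at 0 hours. Psmd13, a lid subunit, had 0.16 and -0.017 at 72 hours and -0.055 and -0.021 at 0 hours, so that 1 replicate at 72 hours lay close to the 0 hour levels. At 48 hours 0 members passed in limma, 2 had an unadjusted p under 0.05, and 0.00662% of all symbols were called. At 6 and 24 hours limma also called 0 members, with 8 and 4 at an unadjusted p under 0.05, beside 1.04% and 1.5% of all symbols. At 12 hours Psmd10 rose and Psme3 fell, beside 1.67% of all symbols. The members' medians from 6 to 48 hours lay between -0.039 and 0.031.

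Over the V449E course 3 members changed, beside 5.74% of all symbols. Psme3 had levels of 0.029 and 0.063 at 0, -0.31 and -0.32 at 6, -0.29 and -0.45 at 12, -0.017 and 0.18 at 24, 0.12 and 0.23 at 48 and 0.021 and -0.050 at 72 hours. Both replicates were lowest at 6 and 12 hours, below all those of the other 4 times, and the difference at 12 hours was -0.42 (SE 0.095, adjusted p = 0.0238). Psmd10 had levels of -0.016 and -0.090 at 0, 0.15 and 0.14 at 6, 0.19 and 0.24 at 12, -0.0011 and -0.0066 at 24, -0.11 and -0.16 at 48 and -0.058 and -0.15 at 72 hours. It was highest at 6 and 12 hours, without overlap with the other times, and rose by 0.27 (SE 0.066, adjusted p = 0.0388) at 12 hours. For Psmb10, of the immunoproteasome, the levels were 0.074 and -0.015 at 0, 0.0024 and -0.084 at 6, 0.23 and 0.10 at 12, 0.35 and 0.31 at 24, 0.31 and 0.26 at 48 and 0.24 and -0.045 at 72 hours. Those at 24 and 48 hours were the highest, yet the difference at 24 hours did not pass on its own, at 0.30 (SE 0.088, adjusted p = 0.0849). The F test gave adjusted p of 0.00299, 0.00671 and 0.0427 for these 3 genes.

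A group of proteasome transcripts was higher in V449E than in FI-Delta cells at 72 hours. Of 49 members 13 were higher and 1 lower, beside 19.7% of all symbols called and 10.8% called as higher, and the median difference was 0.17. Within replicates it was 0.20 and 0.13. The 13 were, from the largest, Psmb8, Psmg2, Psma1, Psmb10, Psmg3, Psma5, Psme1, Psmb1, Psmc5, Psmd14, Psmb2, Psmd9 and Psme4, between 0.61 and 0.20. Psme1 was called only on its gene probe, with a value of -0.022 when its unmixed control spot was averaged in, and its call was lost in 4 of 4 fits without 1 RNA, that of Psme4 in 3 of 4. The 1 lower member was Psme2b, at -0.20 (SE 0.067, adjusted p = 0.0372), whose call was lost in 2 of 4 such fits (adjusted p up to 0.707). Psma1, an alpha subunit, had 0.095 and 0.026 in V449E cells at 72 hours and -0.38 and -0.35 in FI-Delta cells, a difference of 0.42 (SE 0.084, adjusted p = 0.000904). Psmg2 had 0.21 and 0.069 in V449E cells and -0.45 and -0.35 in FI-Delta cells, a difference of 0.54 (SE 0.13, adjusted p = 0.00366). In neither gene did the lines overlap. The count of 14 was 4 without replicate 1 of V449E cells and 7 without replicate 1 of FI-Delta cells at 72 hours, 6 after scaling of the arrays and 9 from print run 1 alone.

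**Figure D4:**
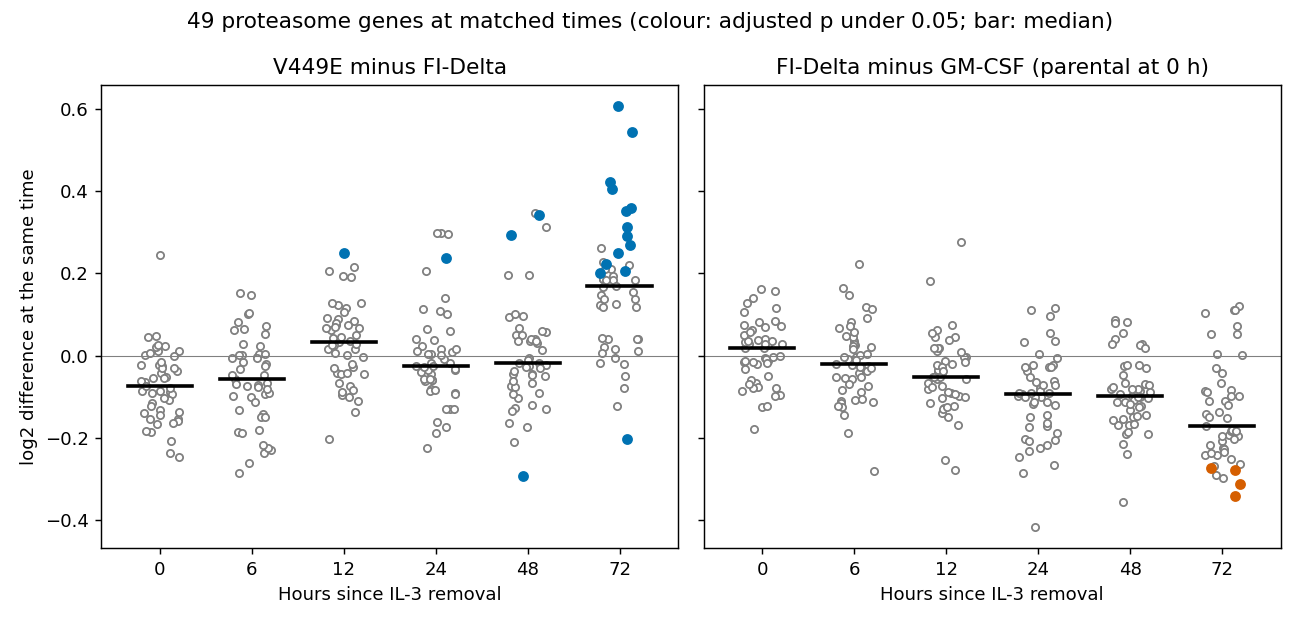
Log2 difference of each of the 49 genes at the same time, V449E minus FI-Delta (left) and FI-Delta minus GM-CSF (right, with parental cells at 0 hours), against hours since IL-3 removal. Filled points have an adjusted p under 0.05 and bars are medians; at 72 hours the median is 0.17 on the left and -0.17 on the right.

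The change between 0 and 72 hours itself differed between these lines in a few members. Of 49 members 5 had a response that was higher in V449E than in FI-Delta cells in the interaction test and 0 a lower one, beside 4.15% of all symbols, and 29 had an unadjusted p under 0.05. The 5 were Psmb8 (V449E response 0.026, FI-Delta response -0.57), Psma1 (0.021 and -0.49), Psma5 (-0.0080 and -0.47), Psmc6 (0.097 and -0.34) and Psmd3 (-0.022 and -0.39). The members' median difference of responses was 0.25. Without 1 of the 8 RNAs the count was 0 to 4, and it was 0 without replicate 2 of FI-Delta or V449E cells at 0 hours or replicate 1 of FI-Delta cells at 72 hours, 1 without replicate 1 of V449E cells at 0 or 72 hours, and 2 without replicate 1 of FI-Delta cells at 0 hours. It was 0 after scaling of the arrays.

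At earlier times V449E and FI-Delta cells differed in single members. Over the 6 times together, with 72 hours included, 12 of 49 differed (F test), beside 17.1% of all symbols. This test does not tell at which times they differed. The count was 5 to 7 without replicate 2 of V449E or FI-Delta cells at 0 hours or replicate 1 of V449E cells at 72 hours, and 5 after scaling of the arrays. Psme4 was higher in V449E cells at 12, 24 and 48 hours, the only member called at 12 and at 24 hours, beside 1.46% and 3.8% of all symbols. At 48 hours, where 9.64% of all symbols were called, Psme4 and Psmb10 were higher and Psma6 lower, at 0.29, 0.34 and -0.29. At 0 and 6 hours limma called 0 members, with 6 and 8 at an unadjusted p under 0.05, beside 0.311% and 1.06% of all symbols. The members' medians from 0 to 48 hours lay between -0.074 and 0.033.

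At 72 hours 4 members were lower in FI-Delta than in GM-CSF cells. These were Psma1, Psmb2, Psmb7 and Psmd14, at -0.34, -0.27, -0.28 and -0.31, 0 were higher, and 1.21% of all symbols were called. Psmd14 had -0.27 and -0.38 in FI-Delta cells and -0.024 and -0.0076 in GM-CSF cells, without overlap and with a difference of -0.31 (SE 0.069, adjusted p = 0.0258). Psmb2 had -0.28 and -0.30 in FI-Delta cells and -0.13 and 0.094 in GM-CSF cells, also without overlap. Of 49 members 22 were lower at an unadjusted p under 0.05, and the median was -0.17. Directly measured medians were -0.10 on replicate 1 arrays, of print run 1, and -0.20 on replicate 2 arrays, of run 2. The 4 calls were 1 without replicate 1 and 0 without replicate 2 of FI-Delta cells, 0 without replicate 2 of GM-CSF cells, 0 from print run 1 alone and 0 after scaling of the arrays.

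At 6, 12, 24 and 48 hours 0 members passed between FI-Delta and GM-CSF cells in limma, while 2, 2, 10 and 7 had an unadjusted p under 0.05. The shares of all symbols called at these times were 0.702%, 0.424%, 0.219% and 0.397%. The members' medians were -0.021, -0.051, -0.093 and -0.098. Over all times 4 members differed by the F test, Psmb2, Psmd14, Psme2b and Psmg2, beside 5.73% of all symbols. This count was 0 to 2 without any 1 of 5 RNAs, namely both parental RNAs at 0 hours (0 and 2 for replicates 1 and 2), both FI-Delta RNAs at 0 hours (2 each) and replicate 2 of FI-Delta cells at 48 hours (2), and 1 from print run 1 alone. For the difference of the 72 hour responses limma called 0 members, beside 0.00662% of all symbols, although 10 had an unadjusted p under 0.05. The members' median difference of responses was -0.16.

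In IL-3, before it was removed, 0 members were called between lines. In V449E against parental cells at 0 hours limma called 0 members, with 7 at an unadjusted p under 0.05, beside 0.934% of all symbols, and the median was -0.086. This was the only comparison with both replicates on both print runs. Directly measured medians of replicates 1 and 2 were -0.13 and -0.15 in run 1, but -0.0094 and -0.021 in run 2. The median thus differed between print runs of the same RNAs, and the cause was not tested. Between FI-Delta and parental RNAs at 0 hours limma called 0 members, with 2 at an unadjusted p under 0.05, beside 0.126% of all symbols, and the median was 0.018. Both comparisons share the parental RNAs.

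Of the inducible subunits of the immunoproteasome, Psmb8 and Psmb10 fell in FI-Delta cells at 72 hours and Psmb9 was not called. Psmb8 was measured by 2 probes, which gave -0.58 and -0.56 in FI-Delta cells at 72 hours. In V449E cells its levels were 0.26 and 0.16 at 0, -0.019 and -0.13 at 6, -0.032 and 0.075 at 12, 0.17 and 0.24 at 24, 0.22 and 0.33 at 48 and 0.24 and 0.23 at 72 hours. In FI-Delta cells they were 0.12 and 0.27 at 0, 0.017 and -0.27 at 6, -0.29 and -0.098 at 12, -0.17 and -0.012 at 24, -0.085 and 0.011 at 48 and -0.46 and -0.29 at 72 hours. Replicates of 1 time in FI-Delta cells lay apart, but both levels at 72 hours were below both at 0 hours, a difference of -0.57 (SE 0.10, adjusted p = 0.000486). In GM-CSF cells, with parental cells at 0 hours, they were 0.19 and -0.0051 at 0, -0.15 and -0.22 at 6, 0.017 and -0.11 at 12, 0.12 and -0.14 at 24, 0.014 and 0.0083 at 48 and -0.15 and -0.057 at 72 hours. The difference at 72 hours there was -0.20 (SE 0.10, adjusted p = 0.319), and V449E cells exceeded FI-Delta cells at 72 hours by 0.61 (SE 0.10, adjusted p = 0.00017).

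Psmb10 had levels of -0.017 and 0.036 at 0, -0.20 and -0.19 at 6, -0.12 and 0.042 at 12, -0.0056 and 0.070 at 24, -0.035 and -0.079 at 48 and -0.31 and -0.31 at 72 hours in FI-Delta cells. In GM-CSF cells, from the parental cells on, they were -0.097 and 0.035 at 0, -0.24 and -0.098 at 6, -0.080 and 0.10 at 12, 0.095 and 0.17 at 24, -0.011 and 0.067 at 48 and -0.19 and -0.37 at 72 hours. In both courses the 72 hour mean was the lowest, with differences of -0.32 (SE 0.088, adjusted p = 0.0132) in FI-Delta cells and -0.25 (SE 0.088, adjusted p = 0.0999) in GM-CSF cells. The FI-Delta call was lost without any 1 of the 4 RNAs (adjusted p up to 0.141). V449E cells, whose levels are given with their course, stood higher than FI-Delta cells at 72 hours by 0.40 (SE 0.088, adjusted p = 0.00191), with the replicates of V449E cells apart.

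Psmb9 passed in none of the single comparisons. Its levels were 0.017 and 0.0014 at 0, -0.18 and -0.13 at 6, -0.031 and -0.074 at 12, -0.11 and 0.081 at 24, 0.23 and 0.10 at 48 and 0.13 and -0.038 at 72 hours in V449E cells. In FI-Delta cells they were 0.081 and -0.063 at 0, -0.12 and -0.25 at 6, -0.018 and -0.048 at 12, -0.054 and 0.045 at 24, -0.024 and -0.030 at 48 and -0.17 and -0.015 at 72 hours. In GM-CSF cells, with parental cells at 0 hours, they were 0.21 and -0.037 at 0, -0.10 and -0.22 at 6, -0.092 and 0.31 at 12, 0.14 and 0.26 at 24, 0.11 and 0.027 at 48 and -0.022 and 0.080 at 72 hours. Levels at 72 hours overlapped those at 0 hours in all 3 lines, and the 72 hour differences were 0.036, -0.10 and -0.056 in V449E, FI-Delta and GM-CSF cells. Psmb11, the form known from the thymus, gave -0.088, -0.024 and -0.20 in the same order and also passed nowhere.

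**Figure D5:**
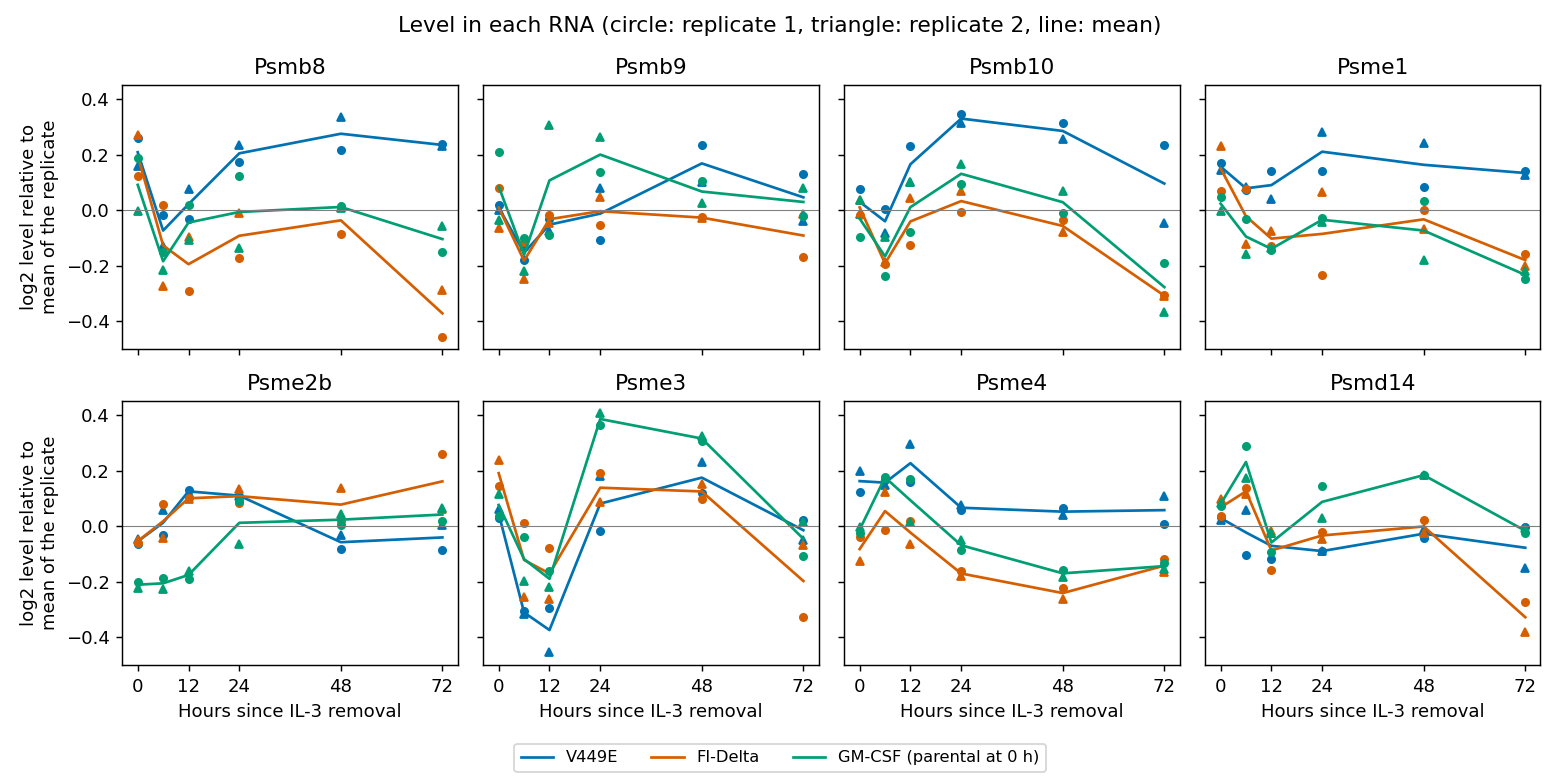
Log2 level in each RNA, relative to the mean of its replicate, against hours since IL-3 removal for the inducible subunits Psmb8, Psmb9 and Psmb10, the activators Psme1, Psme2b, Psme3 and Psme4, and Psmd14. Circles are replicate 1, triangles replicate 2 and lines means of V449E, FI-Delta and GM-CSF cells (parental cells at 0 hours); the FI-Delta line ends lowest in Psmb8, Psmb9, Psmb10, Psme3 and Psmd14.

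Among the activators the FI-Delta calls at 72 hours ran both ways, with Psme1 and Psme3 lower and Psme2b higher. Psme1, one of the 2 chains of the interferon-inducible activator, had levels of 0.17 and 0.14 at 0, 0.073 and 0.083 at 6, 0.14 and 0.039 at 12, 0.14 and 0.28 at 24, 0.083 and 0.24 at 48 and 0.14 and 0.12 at 72 hours in V449E cells. In FI-Delta cells they were 0.070 and 0.23 at 0, 0.076 and -0.12 at 6, -0.13 and -0.076 at 12, -0.24 and 0.063 at 24, 0.00049 and -0.067 at 48 and -0.16 and -0.20 at 72 hours. In GM-CSF cells, after the parental cells, they were 0.048 and -0.0018 at 0, -0.032 and -0.16 at 6, -0.14 and -0.14 at 12, -0.028 and -0.042 at 24, 0.032 and -0.18 at 48 and -0.25 and -0.22 at 72 hours. On its gene probe it differed by -0.33 (SE 0.090, adjusted p = 0.0121) in FI-Delta cells at 72 hours and by -0.26 (SE 0.090, adjusted p = 0.0944) in GM-CSF cells. However, 2 control spots that carry the same accession, 1 of them a mixture, gave 0.28 and 0.34 in the same FI-Delta comparison, opposite to the gene probe. With the unmixed control spot averaged in, the FI-Delta difference was -0.027 (adjusted p = 0.906) and V449E against FI-Delta at 72 hours was -0.022 rather than 0.31. The direction of Psme1 is thus unsettled, and its call was also lost without any 1 of the 4 RNAs (adjusted p up to 0.139). The control spots of Psmc1, Psmb3 and Psmb2 had the sign of their gene probes in FI-Delta cells at 72 hours, with smaller sizes of -0.25, -0.12 and -0.12 on the unmixed spots.

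Psme2b, a copy of the gene for the other chain, Psme2, was the 1 member that rose at 72 hours. RefSeq lists it as a gene of its own, and transcripts of Psme2 could share its probe, so which of the copies was measured is uncertain. Its levels were -0.064 and -0.044 at 0, -0.033 and 0.059 at 6, 0.13 and 0.12 at 12, 0.11 and 0.11 at 24, -0.083 and -0.032 at 48 and -0.085 and 0.0044 at 72 hours in V449E cells. In FI-Delta cells they were -0.059 and -0.049 at 0, 0.080 and -0.043 at 6, 0.10 and 0.099 at 12, 0.084 and 0.13 at 24, 0.018 and 0.14 at 48 and 0.26 and 0.062 at 72 hours. In GM-CSF cells, with parental cells at 0 hours, they were -0.20 and -0.22 at 0, -0.19 and -0.23 at 6, -0.19 and -0.16 at 12, 0.090 and -0.064 at 24, 0.0038 and 0.044 at 48 and 0.018 and 0.067 at 72 hours. Both parental RNAs lay below both GM-CSF RNAs at 24, 48 and 72 hours. The 72 hour differences were 0.22 (SE 0.067, adjusted p = 0.0272) in FI-Delta cells and 0.25 (SE 0.067, adjusted p = 0.0232) in GM-CSF cells. The FI-Delta call was lost in 3 of the 4 fits that leave out 1 RNA and the GM-CSF call in all 4, with adjusted p up to 0.386 and 0.31.

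Psme3 in FI-Delta cells had levels of 0.14 and 0.24 at 0, 0.011 and -0.25 at 6, -0.079 and -0.26 at 12, 0.19 and 0.086 at 24, 0.099 and 0.15 at 48 and -0.32 and -0.069 at 72 hours. It was lower at 12 hours, at -0.36 (SE 0.095, adjusted p = 0.0246), and at 72 hours, at -0.39 (SE 0.095, adjusted p = 0.00586), with 1 replicate well below the other at 72 hours. This call at 72 hours was lost in 3 of 4 fits without 1 RNA, with adjusted p up to 0.227. Psme4 had levels of 0.13 and 0.20 at 0, 0.17 and 0.15 at 6, 0.16 and 0.30 at 12, 0.058 and 0.076 at 24, 0.066 and 0.039 at 48 and 0.0072 and 0.11 at 72 hours in V449E cells. In FI-Delta cells they were -0.038 and -0.13 at 0, -0.014 and 0.12 at 6, 0.020 and -0.065 at 12, -0.16 and -0.18 at 24, -0.22 and -0.26 at 48 and -0.12 and -0.17 at 72 hours. The lines did not overlap at any of the 6 times, with V449E cells higher at each. Over all times Psme4 had the smallest F test p of the members (adjusted p = 6.93e-05). At 0 hours, before IL-3 was removed, its difference was 0.24 (SE 0.064, adjusted p = 0.151).

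Members differed in how closely they followed the rest. Over the 15 differences from 0 hours, the correlation of each member with the median of the others was highest for Psmc1 (r = 0.92), Psmd4 (0.91) and Psma7 (0.90). It was lowest for Psmb11 (-0.62), Psma8 (-0.37), Psmd11 (-0.34), Psme2b (-0.30), Psmd2 (-0.26) and Psme4 (-0.11). Differences of 1 course share their 0 hour RNAs and all share arrays, so these values only describe likeness.

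Genes outside the rule that work with the particle were followed in 4 lists chosen with these results known. Their counts stand beside the shares of all symbols called at 72 hours, 18.5% in FI-Delta, 7.23% in GM-CSF and 0% in V449E cells and 19.7% between V449E and FI-Delta cells. Of 12 other proteasome proteins measured, 0 rose and 6 fell in FI-Delta cells at 72 hours, with a median of -0.22. Those with the smallest p were Ubqln4, a shuttle for ubiquitin-tagged proteins, at -0.47 (adjusted p = 0.00029), Pomp, which matures the core particle, at -0.39 (adjusted p = 0.00373), Uchl5, a deubiquitinase of the cap, at -0.36 (adjusted p = 0.00472), and Rad23b, another shuttle, at -0.30 (adjusted p = 0.00715). In GM-CSF at 72 hours 1 of them passed, Ubqln4 at -0.28 (adjusted p = 0.0313), and in V449E cells 0. Against FI-Delta cells at 72 hours, 4 were higher in V449E cells and 0 lower.

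Of 14 genes for ubiquitin supply and the p97 machine, 1 rose and 3 fell in FI-Delta cells at 72 hours, with a median of 0.0037. Vcp, which encodes p97, an unfoldase that works upstream of the particle, gave -0.38 (adjusted p = 0.00132), Uba6, a ubiquitin-activating enzyme, -0.24 (adjusted p = 0.0364), and Nsfl1c, a p97 cofactor, -0.20 (adjusted p = 0.0409), while Ufd1, another cofactor, gave 0.19 (adjusted p = 0.0437). Of 11 regulators of proteasome genes 0 rose and 1 fell there, Keap1, the inhibitor of NRF2, at -0.23 (adjusted p = 0.0194). Of 11 genes for class I presentation and its inducers 1 rose and 3 fell. B2m, the light chain of class I molecules, gave 0.42 (adjusted p = 0.029), and the endoplasmic reticulum chaperones Calr, Canx and Pdia3 gave -0.67 (adjusted p = 0.00122), -0.23 (adjusted p = 0.00679) and -0.38 (adjusted p = 0.013). In GM-CSF at 72 hours B2m was higher, at 0.80 (adjusted p = 0.000606), and Calr lower, at -0.49 (adjusted p = 0.0287), and 0 of the ubiquitin genes or regulators passed. In V449E cells at 72 hours 0 genes of any of the 4 lists passed. At 24 hours in V449E cells 1 of them passed, B2m at 0.89 (adjusted p = 0.00195), beside 1.5% of all symbols. Against FI-Delta cells at 72 hours V449E cells had 1 ubiquitin gene higher and 1 lower, 1 regulator higher and 1 lower, and 4 class I genes higher and 0 lower.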

How the data were processed

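Total RNA of mouse FDB1 cells was compared on 58 dye-swap pairs of spotted 2-colour arrays. The values are log2 ratios as deposited by the authors in the series matrix. The submitters' processing notes name limma without a version, and per the labels spots of both print runs were put in 1 order after normalisation. The log base, the direction and the methods of background correction and normalisation are not given in the sources used here, and log2 and direction are likely readings. Spot signals were not analysed here. The precision of a difference comes from the spread between the fitted levels of RNAs, with 2 RNAs per condition. All levels were weighted alike, although RNAs stand on unlike numbers of arrays and levels of 1 replicate share arrays. The spread thus holds error of the arrays as well as differences between RNAs.

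Of 23040 probes 1243 control spots were left out. Symbols came from the platform annotation, updated through Entrez identifiers in the RefSeq gene table: 16651 probes had 1 symbol, 137 several and 5009 none, and probes of 1 symbol were averaged to 15097 symbols. Dye-swap pairs were averaged with the sign turned, and least squares within each replicate gave 36 levels. No array joins the replicates and levels are centred within a replicate, so that the replicate number is a block by construction. Differences were tested 2-sided with limma 3.58.1 in R 4.3.3 (lmFit, eBayes, replicate number as a block, 17 residual and 5.57 prior degrees of freedom), with Benjamini-Hochberg adjustment over 15097 symbols and a threshold of 0.05. The median standard error of a member's difference was 0.084. The labels do not say that replicates came from separate cultures, so p-values reflect only how these RNAs varied, which may be technical. The fit was also run on simulated data, whose settings and outcome are not given here, so no result rests on that run.

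Members, lists and tests were chosen with earlier results of these data known. Values per RNA are given for the 3 members with the smallest F test p in each course, for inducible subunits and activators, and at 72 hours for the extreme members of each course, and others by counts and range. Other members are named within their role to say which were called and which were not. Alternatives were no replicate block, single probes, scaled arrays, pair ratios fitted directly, direct comparisons, print run 1 alone, symbols as the platform gives them and fits without 1 RNA. Averaging in control spots was added after the data were seen. Promoters were read from RefSeq tables on GRCm38.p6.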

Additional observations from a re-analysis of the deposited data

Results flagged for a closer look

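For 5 members the change between 0 and 72 hours differed between V449E and FI-Delta cells in limma's interaction test, adjusted over all symbols. The difference of responses, V449E minus FI-Delta on the log2 scale, was 0.59 (SE 0.14, adjusted p = 0.0227) for Psmb8, 0.51 (SE 0.12, adjusted p = 0.0179) for Psma1, 0.47 (SE 0.11, adjusted p = 0.0167) for Psma5, 0.44 (SE 0.12, adjusted p = 0.0388) for Psmc6 and 0.37 (SE 0.11, adjusted p = 0.0493) for Psmd3. In each gene both FI-Delta replicates were lower at 72 than at 0 hours. Leaving out 1 of the 8 RNAs ended the call in 5 of 8 fits for Psmb8, 4 for Psma1, 5 for Psma5 and 8 each for Psmc6 and Psmd3, with the same direction in every fit. Scaling of the arrays ended all 5 calls.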

How the results depend on the processing

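The direction of each named member held in the alternatives run for it, except Psme1 in V449E against FI-Delta cells at 72 hours (-0.022 with the unmixed control spot), while counts of calls moved widely. With the arrays scaled to 1 spread, 9 members changed over the FI-Delta course, 6 over the V449E course and 5 between V449E and FI-Delta cells. At single times scaling gave 1 for GM-CSF, 0 for FI-Delta at 12 hours, 15 for FI-Delta at 72 hours, 6 for V449E against FI-Delta, 0 for FI-Delta against GM-CSF at 72 hours and 0 differences of response. Fitting the 58 pair ratios as independent observations gave more calls: 23, 36 and 11 over the GM-CSF, FI-Delta and V449E courses, 28 between V449E and FI-Delta, 23 between FI-Delta and GM-CSF, 10 for GM-CSF at 72 hours, 21 for FI-Delta at 12 hours, 23 and 14 for the 2 matched comparisons at 72 hours, 19 for V449E against parental cells at 0 hours, and 35 and 11 differences of response. The 58 pairs share 36 RNAs, so that fit counts repeated arrays of an RNA as replicates. Its p-values do not measure the spread between RNAs. Direct comparisons alone gave 9 between FI-Delta and GM-CSF over all times, 2 for GM-CSF at 72 hours, 13 for FI-Delta at 12 hours, 1 for FI-Delta against GM-CSF at 72 hours and 20 differences of response between V449E and FI-Delta. Print run 1 alone gave 4 over the GM-CSF course, 13 over the FI-Delta course, 1 between FI-Delta and GM-CSF, 9 for V449E against FI-Delta at 72 hours, 0 for FI-Delta against GM-CSF at 72 hours and 1 for V449E against parental cells at 0 hours. The fit from print run 1 kept only replicate 1 of each GM-CSF condition. Probes fitted singly gave 2 for GM-CSF at 72 hours. Of the 30 calls in FI-Delta cells at 72 hours, 15 were kept under scaling and 28 to 30 under the other settings with all RNAs.

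The members' median at 72 hours in GM-CSF was -0.087 with scaling and -0.078 by direct comparison. In FI-Delta cells it was -0.26 with scaling or control spots included, -0.33 by direct comparison and -0.26 from run 1, and in V449E cells 0.0076 by direct comparison. For FI-Delta against GM-CSF it was -0.15 with scaling, -0.13 from run 1 and -0.16 with control spots. Leaving out 1 RNA gave counts of 6 to 13 over the GM-CSF course, 10 to 22 over the FI-Delta course, 2 to 4 over the V449E course, 5 to 14 between V449E and FI-Delta and 0 to 5 between FI-Delta and GM-CSF. At single times it gave 0 to 3 for GM-CSF at 72 hours, 0 to 3 for FI-Delta at 12 hours, 9 to 23 for FI-Delta at 72 hours, 4 to 12 for V449E against FI-Delta, 0 to 3 for FI-Delta against GM-CSF and 0 to 4 differences of response. The medians then ranged from -0.14 to -0.075 in GM-CSF, -0.32 to -0.24 in FI-Delta, -0.067 to -0.0022 in V449E, and -0.22 to -0.12 in FI-Delta against GM-CSF. A lone remaining RNA was assumed to vary like the others. Without the replicate block 31 members were called in FI-Delta cells at 72 hours, 24 over the FI-Delta course and 13 over the GM-CSF course, and no count moved by over 1.5 times. Ratios near the spots' background could not be judged, since signals were not used. Shares of all symbols called are given here for the main fit only. Counts of members under other settings thus have no such share beside them, and do not show whether a shift is particular to these genes. The causes of these shifts were not tested.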

Other observations

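Psmd10, an assembly chaperone, was the 1 member called higher at 12 hours in all 3 courses. Each course was compared with the 0 hour RNAs of its own line. Levels of 1 replicate share arrays, so the 3 courses are not independent. Of all symbols, 117 were called higher at 12 hours in V449E, 370 in FI-Delta and 239 in GM-CSF cells. How many were called higher in all 3 was not counted, so whether the overlap is particular to Psmd10 was not tested. Psmd10 had 0.19 and 0.24 in V449E cells at 12 hours and -0.016 and -0.090 at 0 hours. It had 0.071 and 0.22 in FI-Delta cells at 12 hours and -0.068 and -0.091 at 0 hours. In GM-CSF at 12 hours it had 0.10 and 0.060, and parental cells had -0.12 and -0.21. In none of the 3 pairs did the replicates overlap, and the differences were 0.27, 0.22 and 0.25. In FI-Delta cells the call ended after scaling of the arrays and without replicate 2 at 0 or at 12 hours, where 0 members were called. For the other lines such fits were not run at 12 hours. The gene was singled out after its values were seen.

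Psmg1 and Psmg2, partners in building the alpha ring, lay lower at 6 than at 0 hours in both replicates of all 3 courses, although none of the 6 differences passed in limma. At 6 hours, 22, 16 and 21 of 49 members were lower in both replicates of V449E, FI-Delta and GM-CSF cells. The shares of all symbols were 30.7%, 27.9% and 29.9%. These genes were singled out after their values were seen. Psmg1 differed from 0 hours by -0.32 (adjusted p = 0.148) in V449E, -0.34 (adjusted p = 0.104) in FI-Delta and -0.36 (adjusted p = 0.1) in GM-CSF cells. Psmg2 differed by -0.36 (adjusted p = 0.257), -0.48 (adjusted p = 0.0716) and -0.37 (adjusted p = 0.209) in the same order of lines.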
